A study of Mus musculus with 2 samples.

Results

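The genes described here are 9 mouse genes of the extracellular end of Wnt signalling, picked by name: the secreted Frizzled-related genes Sfrp1, Sfrp2, Sfrp4 and Frzb, the Dickkopf genes Dkk2 and Dkk3, the Wnt inhibitory factor gene Wif1, and the receptor genes Fzd1 and Fzd2. They were looked up by symbol in all 22 tables of the series, and 8 of them are among the 15059 genes of each fibroblast subcluster table. Wif1 is in none of the 22 tables and has no value. Droplet single-cell RNA sequencing was done on interstitial cells of the cardiac ventricle, with 1 library per genotype. The control library came from PostnMCM mice, which carry a tamoxifen-inducible Cre recombinase driven from the Postn locus. The other library came from Yapfl/fl;Wwtr1fl/+;PostnMCM mice, which add loxP sites for Cre at Yap (homozygous) and at Wwtr1 (heterozygous). All mice were adults, carried the R26-eGFP transgene, had the left anterior descending artery ligated to cause a myocardial infarction (MI) and ate chow with 0.4 g/kg tamoxifen from then on. Per the labels hearts were taken at day 6, while the methods of the study give the following day, and the number of hearts behind each library is not given in the sources used here.

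Wnt proteins are secreted ligands that bind Frizzled receptors together with the co-receptors Lrp5 or Lrp6, and in the canonical branch this stabilises beta-catenin, which then acts with TCF/LEF factors on target genes. Secreted Frizzled-related proteins carry a cysteine-rich domain like that of the receptors and bind Wnt proteins outside the cell, Wif1 binds Wnt proteins through a different domain, and Dickkopf proteins such as Dkk2 bind the Lrp co-receptors. Dkk3 is a divergent Dickkopf protein whose action on Wnt signalling is not settled. In the healing heart these secreted modulators are best known from fibroblasts of the scar, and Sfrp2 has also been tied to collagen processing there.

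Every value below describes these 2 libraries. With a single library per genotype no test of genotype was possible, and no value carries a replicate error. The share is the percent of cells of a subcluster with a corrected count above 0. The log2 fold change is the deposited average, labelled depleted minus control, of log2(mean corrected count + 1), which pulls genes of low level towards 0. A gene is said to pass the limit where this value is at least 0.25 in size, the limit that the cluster tables were made with. The tables do not state the number of cells behind a share, and no interval is given. The smallest share above 0 was 0.7%, 3.3%, 2.5% and 4.3% in the control library and 3.1%, 4.3%, 10% and 4.8% in the library labelled depleted (subclusters 0, 3, 4 and 5), and a difference of a few points is close to these.

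The fibroblast cluster (cluster 5) was re-clustered by the authors, and the 4 subclusters with a deposited comparison were named epicardial (0), proliferating myofibroblast (3), matrifibrocyte (4) and secretory myofibroblast (5) in the study. Col1a1, Col1a2 and Dcn, the defining matrix genes of fibroblasts, were counted in 100% of cells of both libraries in all 4 subclusters. The other fibroblast markers were less even, with Pdgfra in 38.6%, 66.7%, 85% and 87% and Tcf21 in 2.1%, 6.7%, 35% and 43.5% of control cells of subclusters 0, 3, 4 and 5. In the library labelled depleted Pdgfra was in 71.9%, 87%, 80% and 81% of cells, with log2 fold changes of 1.35, 0.76, 0.39 and -0.06, and Tcf21 in 0%, 8.7%, 20% and 81%. Wt1, Upk3b and Lrrn4, genes of the epicardium and other mesothelial layers, were also counted in 86.7% to 100% of control cells of subclusters 0, 3 and 4, and Msln, the remaining gene of that list, in 50.3%, 43.3% and 47.5%. Subcluster 5 stood apart, with 73.9%, 21.7%, 13% and 8.7% of control cells for these 4 genes. Postn, which drives Cre, was counted in 25.5%, 40% and 10% of control cells of subclusters 0, 3 and 4 and in 87% of those of subcluster 5, beside 28.1%, 13%, 20% and 100% in the other library. The part of these differences in the values of the members was not tested. Since excision needs Cre from this locus, cells that never expressed Postn keep their floxed alleles in this model. A Postn count at the time of collection does not show whether a cell had ever expressed it, and excision was not measured here. The subclusters are called by number below.

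**Figure D1:**
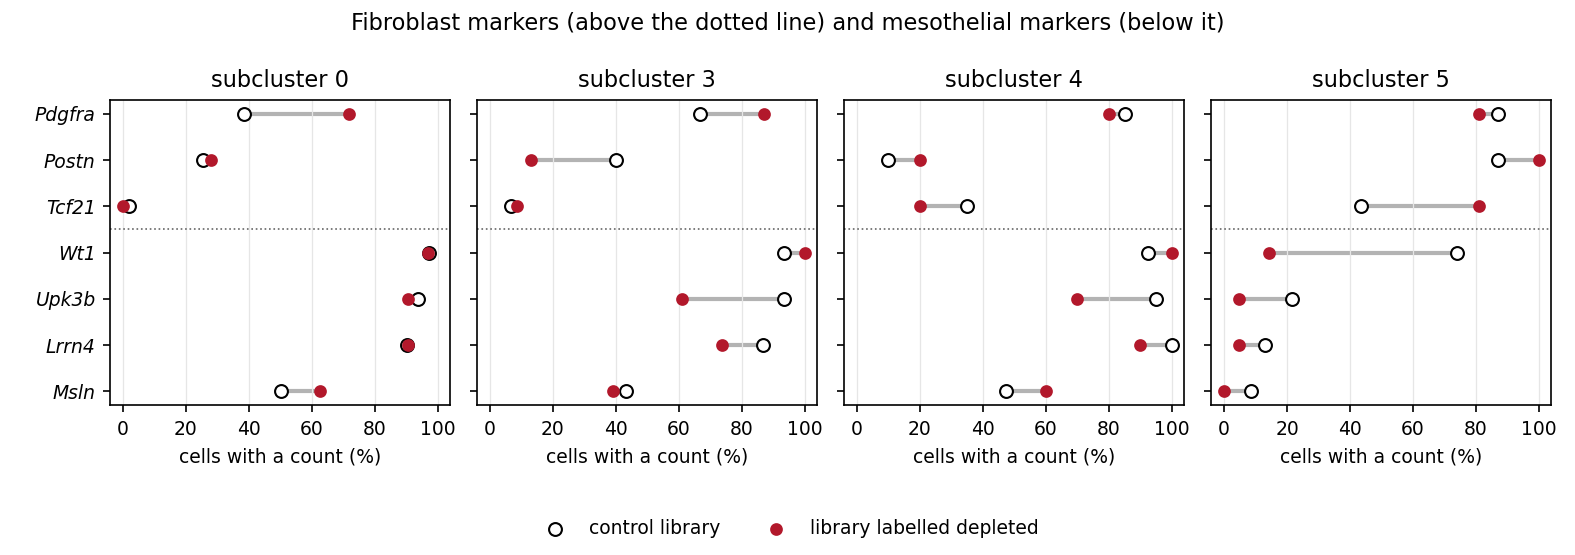
Percent of cells with a count (horizontal axis) for 3 fibroblast markers and 4 mesothelial markers in the 4 fibroblast subclusters, with 1 open circle for the control library and 1 filled circle for the library labelled depleted. Wt1, Upk3b and Lrrn4 are in most cells of subclusters 0, 3 and 4 in both libraries, while in subcluster 5 Wt1 is at 73.9% in the control library and 14.3% in the other.

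Of the targeted transcripts, Yap1 was at 0.07, 0.31, 0.04 and 0.26 and Wwtr1 at 0.15, -0.30, -0.21 and -0.16 on the log2 scale in subclusters 0, 3, 4 and 5. Whole-gene counts from libraries read at the 3′ end need not fall when a floxed exon is removed, so these values check neither library's label, and the genotype is given throughout as labelled. Transcripts of other cell types also differed between the libraries. The 5 neutrophil markers had a summed share of 208.7 to 255.2 points in control cells and 103.1 to 142.8 points in the library labelled depleted, all 5 with a log2 fold change below 0 in subclusters 0, 3 and 4 and above 0 in subcluster 5. For the T cell markers found in the tables (3 of 4), the summed share was 13 to 24.1 points in control cells and 31.2 to 73.8 points in the other library. For the 6 macrophage markers it was 278.2 to 353.2 points against 190.5 to 280, but their log2 fold changes did not follow, with 3, 6, 0 and 5 of the 6 above 0 in subclusters 0, 3, 4 and 5. The part of such transcripts in the values below was not tested. The median log2 fold change of genes with a mean share of at least 10% lay within 0.03 of 0 in each subcluster, so centring moved no value by more than that.

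In control fibroblasts the members fell into 2 patterns of detection. Fzd1, Fzd2 and Dkk3 were counted in most cells of every subcluster. Sfrp1, Sfrp4, Frzb and Dkk2 were counted in the largest share of cells in subcluster 5, and Sfrp2 in subclusters 4 and 5. The subclusters were drawn from the expression of these cells, and Sfrp2 is a gene from which the study named subcluster 4, so this order is a description.

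**Figure D2:**
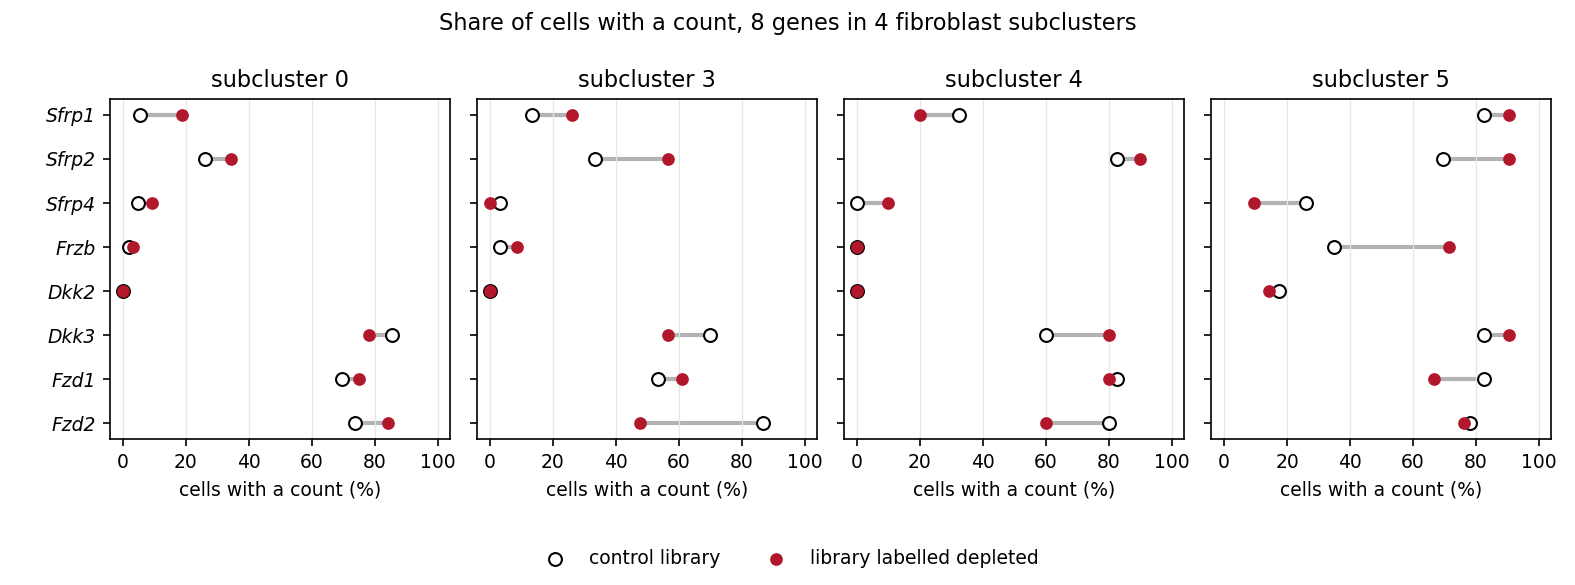
Percent of cells with a count (horizontal axis) for the 8 members with values in fibroblast subclusters 0, 3, 4 and 5, with 1 open circle for the control library and 1 filled circle for the library labelled depleted, joined by a line. The longest lines belong to Fzd2 in subcluster 3 (86.7% to 47.8%) and Frzb in subcluster 5 (34.8% to 71.4%).

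Sfrp1 (chromosome 8, 23901263 to 23939648, plus strand, on GRCm39 like all positions here) encodes a secreted Wnt-binding protein. It was counted in 5.5%, 13.3%, 32.5% and 82.6% of control cells of subclusters 0, 3, 4 and 5. The library labelled depleted had 18.8%, 26.1%, 20% and 90.5%. The order of the subclusters in the control library was thus kept in part, with subcluster 5 far above the rest in both. The log2 fold change of Sfrp1 was positive in subclusters 0 and 3, at 0.41 and 0.80, and negative in subclusters 4 and 5, at -0.12 and -0.38. In subcluster 3, 0.518% of all genes were as high as Sfrp1. The cells with a count in the library labelled depleted held a mean of at least 3.72 corrected Sfrp1 counts each there. A minority of cells thus carried that average. In subcluster 5 the share and the average level of Sfrp1 moved in opposite directions.

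Sfrp2 (chromosome 3, 83673481 to 83681623, plus strand) had a higher share in the library labelled depleted in all 4 subclusters. Control shares of 26.2%, 33.3%, 82.5% and 69.6% of cells in subclusters 0, 3, 4 and 5 stood beside 34.4%, 56.5%, 90% and 90.5%. The steps in subclusters 3 and 5, of 23.2 and 20.9 points, were several times the smallest share of those tables, while the 7.5 points in subcluster 4 were below the 10% that is the smallest share above 0 of the library labelled depleted. The log2 fold change of Sfrp2 was 0.52, 0.66 and 0.30 in subclusters 0, 4 and 5 but -0.47 in subcluster 3. By the formula of the fold change, the control cells of subcluster 3 with an Sfrp2 count held a mean of at least 3.51 corrected counts each, so the control library had fewer positive cells there but the higher average.

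Sfrp4 (chromosome 13, 19807274 to 19817164, plus strand) was rare outside subcluster 5. Control cells with a count made up 4.8%, 3.3% and 0% of subclusters 0, 3 and 4, against 9.4%, 0% and 10% in the library labelled depleted, and its log2 fold changes of 0.01, -0.05 and 0.14 were all under the limit. A share of 10% in subcluster 4 is the smallest above 0 that its table holds for that library. In subcluster 5 Sfrp4 was counted in 26.1% of control cells and 9.5% of cells of the other library, with a log2 fold change of -1.43, the largest in size of any member, and 0.332% of all genes were as low. The control cells of subcluster 5 with a count held a mean of at least 7.49 corrected Sfrp4 counts each, so a minority of cells carried the average.

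Frzb (chromosome 2, 80242313 to 80278304, minus strand), also known as sFRP3, was close to absent from subclusters 0, 3 and 4. Its shares there were 2.1%, 3.3% and 0% in the control library and 3.1%, 8.7% and 0% in the library labelled depleted, with log2 fold changes of 0.01, 0.18 and 0. In subcluster 5 Frzb was counted in 34.8% of control cells and 71.4% of cells of the library labelled depleted, a difference of 36.6 points, and its log2 fold change was 0.39. Among the members, this was the largest rise in share in any subcluster, in the subcluster where Sfrp4 had its largest fall.

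Dkk2 (chromosome 3, 131790336 to 131886065, plus strand), which encodes a ligand of the Lrp co-receptors, had no count in either library in subclusters 0, 3 and 4. In subcluster 5 it was counted in 17.4% of control cells and 14.3% of cells of the library labelled depleted, a gap of 3.1 points that is under the smallest share above 0 in either library. Its log2 fold change there was nevertheless -1.16, and 0.598% of all genes were as low. The positive control cells held a mean of at least 8.94 corrected Dkk2 counts each, so that the libraries differed in counts per positive cell more than in the share of positive cells.

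Dkk3 (chromosome 7, 111712904 to 111758760, minus strand) was widely detected. Its share was 85.5%, 70%, 60% and 82.6% of control cells in subclusters 0, 3, 4 and 5, and 78.1%, 56.5%, 80% and 90.5% of cells in the library labelled depleted. The log2 fold change of Dkk3 was 0.21, -0.24, 0.33 and -0.28, which put it past the limit upwards in subcluster 4 and downwards in subcluster 5. In subclusters 0 and 5 the share went the other way from the level, and the value in subcluster 3 lay just inside the limit.

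Fzd1 (chromosome 5, 4803839 to 4808035, minus strand), a receptor gene, was the only member that any of the 18 cluster tables lists. Cluster 5 as a whole had a Fzd1 count in 53% of control cells and 63.6% of cells of the library labelled depleted, with a log2 fold change of 0.44. It is 1 of 262 genes listed higher there, which are 43.3% of the 605 genes listed. Cluster 5 also holds the cells of subclusters 1 and 2, which were not analysed here, and its values come from a separate normalization. In the study, subclusters 0, 2 and 4 came mainly from control hearts and subcluster 1 mainly from hearts of the other genotype. Values of cluster 5 as a whole therefore compare libraries with different mixes of subclusters. In subclusters 0, 3, 4 and 5 Fzd1 was counted in 69.7%, 53.3%, 82.5% and 82.6% of control cells and in 75%, 60.9%, 80% and 66.7% of cells of the other library. The log2 fold change was 0.44, 0.21 and 0.45 in subclusters 0, 3 and 4, and -0.21 in subcluster 5. Fzd1 was thus past the limit upwards in subclusters 0 and 4 and past it downwards in none of the 4.

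Fzd2 (chromosome 11, 102495222 to 102498884, plus strand), the other receptor gene, was counted in 73.8%, 86.7%, 80% and 78.3% of control cells in subclusters 0, 3, 4 and 5. In the library labelled depleted the shares were 84.4%, 47.8%, 60% and 76.2%. The fall of 38.9 points in subcluster 3 was the largest difference in share of any member. The log2 fold changes of Fzd2 were 0.04, -0.47, -0.31 and 0.35, in the same order. Fzd1 and Fzd2 therefore had opposite signs in subclusters 3, 4 and 5, and the difference between the genes was not tested.

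**Figure D3:**
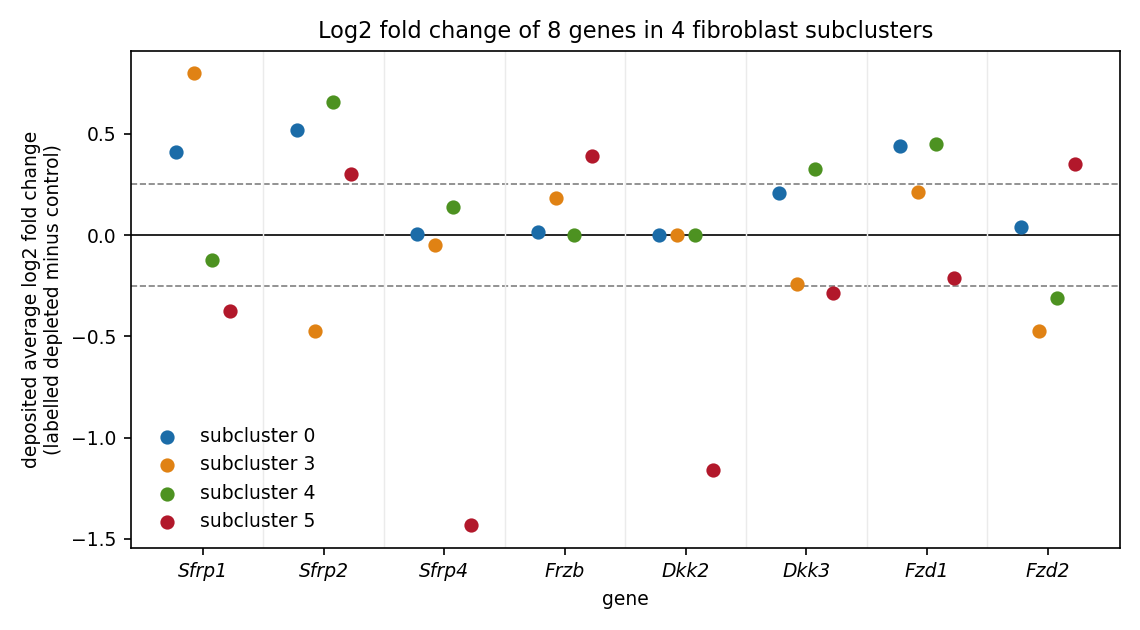
Deposited average log2 fold change (vertical axis, labelled depleted minus control) of the 8 members with values, 1 point per fibroblast subcluster, with dashed lines at 0.25 above and below 0. Sfrp4 (-1.43) and Dkk2 (-1.16) in subcluster 5 lie lowest and Sfrp1 in subcluster 3 (0.80) highest.

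Of the 32 values of the 8 members in the tables, 17 passed the limit, in both directions. The counts below are of all 9 members. In subcluster 0, 3 members were higher (Sfrp1, Sfrp2 and Fzd1) and 0 lower, beside 7.61% of all 15059 genes higher and 6.37% lower. Subcluster 3 had 1 member higher (Sfrp1) and 2 lower (Sfrp2 and Fzd2), with 9.13% and 9.68% of all genes. In subcluster 4, 3 members were higher (Sfrp2, Dkk3 and Fzd1) and 1 lower (Fzd2), beside 17% and 13.3%. Subcluster 5 had 3 higher (Sfrp2, Frzb and Fzd2) and 4 lower (Sfrp1, Sfrp4, Dkk2 and Dkk3), beside 12.6% and 14.7%. Of the 4 lower members in subcluster 5, Sfrp1 and Dkk3 were counted in a larger share of cells in the library labelled depleted. The background counts all genes, many of them rarely detected. Among genes with a mean share of at least 10%, 8.57% to 22.8% passed the limit in a direction. No member was on the same side of the limit in all 4 subclusters.

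The share of cells and the average level of a member did not always move together. Of the 32 values, 22 had both on the same side of 0, 6 had them on opposite sides, and 4 had no count in either library. Among the 17 values past the limit, 5 were opposite: Sfrp2 in subcluster 3, Fzd1 in subcluster 4, and Sfrp1, Dkk3 and Fzd2 in subcluster 5.

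**Figure D4:**
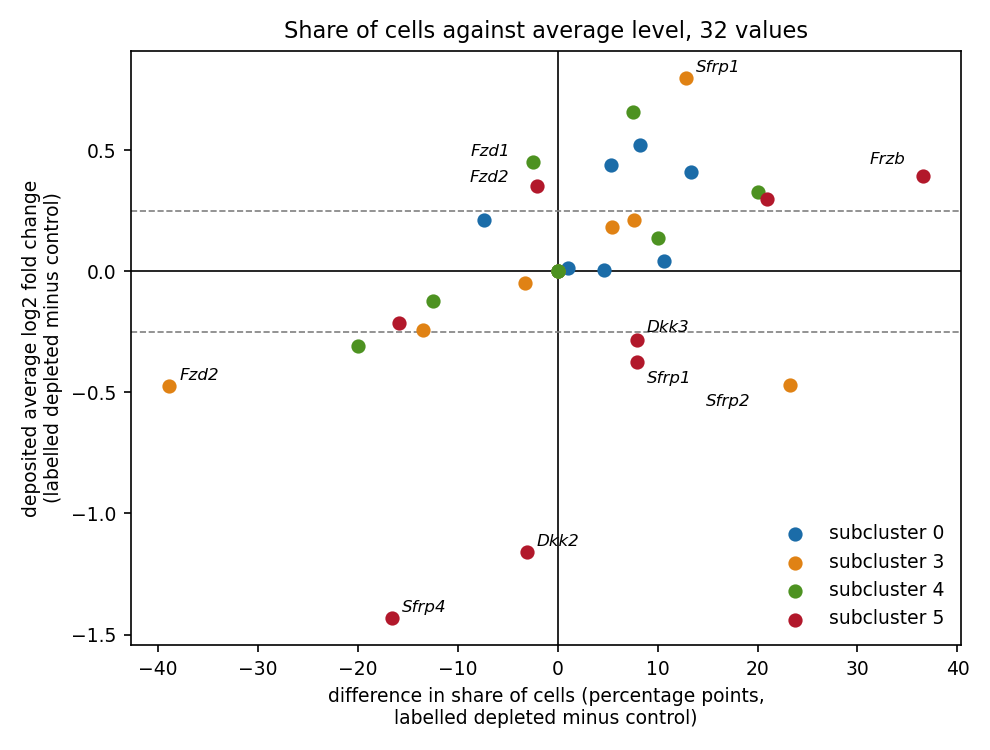
Difference in share of cells (horizontal axis, percentage points) against the deposited average log2 fold change (vertical axis), both labelled depleted minus control, for 32 values of 8 members in 4 fibroblast subclusters, with dashed lines at 0.25 above and below 0. Names mark the 5 opposite values past the limit in the upper left and lower right, and the values that lie farthest out, such as Sfrp4 (-16.6 points, -1.43).

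None of the other 17 cluster tables, which cover immune and unidentified clusters, lists any of the 9 genes. Those tables stop at a log2 fold change of 0.25 in size and at a share of 25% in one library or the other, and a gene left out has no value there. These tables therefore give no share of cells with a count in a cell type that should lack these genes, and the background from free RNA was not measured here.

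The genes whose 8 shares (4 subclusters in 2 libraries) lay nearest to those of a member were taken from all 15059 genes, as a description of likeness in detection and of nothing else. Nearest to Sfrp1 were Ctsk, which encodes the collagen-degrading protease cathepsin K, at a mean difference of 3.48 points, Pdgfrl at 5.48 and Gpc6 at 5.66 points. Frzb had Galnt16 (3.05 points), Ccn5, a matricellular gene (3.3 points), and Ddah1 (3.39 points), and Ccn5 went from 43.5% to 76.2% of cells in subcluster 5. For Sfrp4, which is rare in most subclusters, the nearest gene was Ptprm at 0.65 points, and for Sfrp2 it was Lbh at 7.46 points, so no gene matched Sfrp2 closely. Dkk3 was nearest to Htra3, a secreted serine protease gene, at 4.1 points. Fzd1 and Fzd2 were nearest to Setd5 (3.89 points) and Snx4 (4.03 points). The shares of a subcluster come from the same cells for all genes and so share depth and library.

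The rest of the pathway was taken from 6 lists of 90 genes, of which 67 are in the subcluster tables. In subclusters 0, 3, 4 and 5, 13, 11, 12 and 9 of these passed the limit upwards, which is 19.4%, 16.4%, 17.9% and 13.4% of the 67, beside 7.61%, 9.13%, 17% and 12.6% of all genes. Downwards 4, 10, 5 and 18 passed it, which is 5.97%, 14.9%, 7.46% and 26.9%, beside 6.37%, 9.68%, 13.3% and 14.7% of all genes. The counts per list that follow stand against the same shares of all genes. The medians over the 67 genes were 0.01, 0.01, 0 and -0.02.

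The Wnt ligands made up the largest part of the lower genes in subcluster 5. Of 9 ligand genes in the tables, 6 were past the limit downwards and 0 upwards there, with a median of -0.53. Wnt4, known for its part in epithelial and mesothelial development, was counted in 78.3% of control cells and 19% of cells of the library labelled depleted, with a log2 fold change of -2.23. Wnt2 went from 34.8% to 4.8% (-1.26) and Wnt9a from 39.1% to 4.8% (-0.99). Wnt4 was counted in 97.2%, 96.7% and 77.5% of control cells of subclusters 0, 3 and 4 and in 100%, 100% and 70% of the others, and its log2 fold changes of -0.19, -0.24 and -0.37 included 1 past the limit. Wnt5a, a ligand of the noncanonical branch, was at 0.58, 0.36 and 0.58 in subclusters 0, 3 and 4 and at -0.53 in subcluster 5. In subcluster 4 Wnt9a was at 0.62, opposite to subcluster 5.

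**Figure D5:**
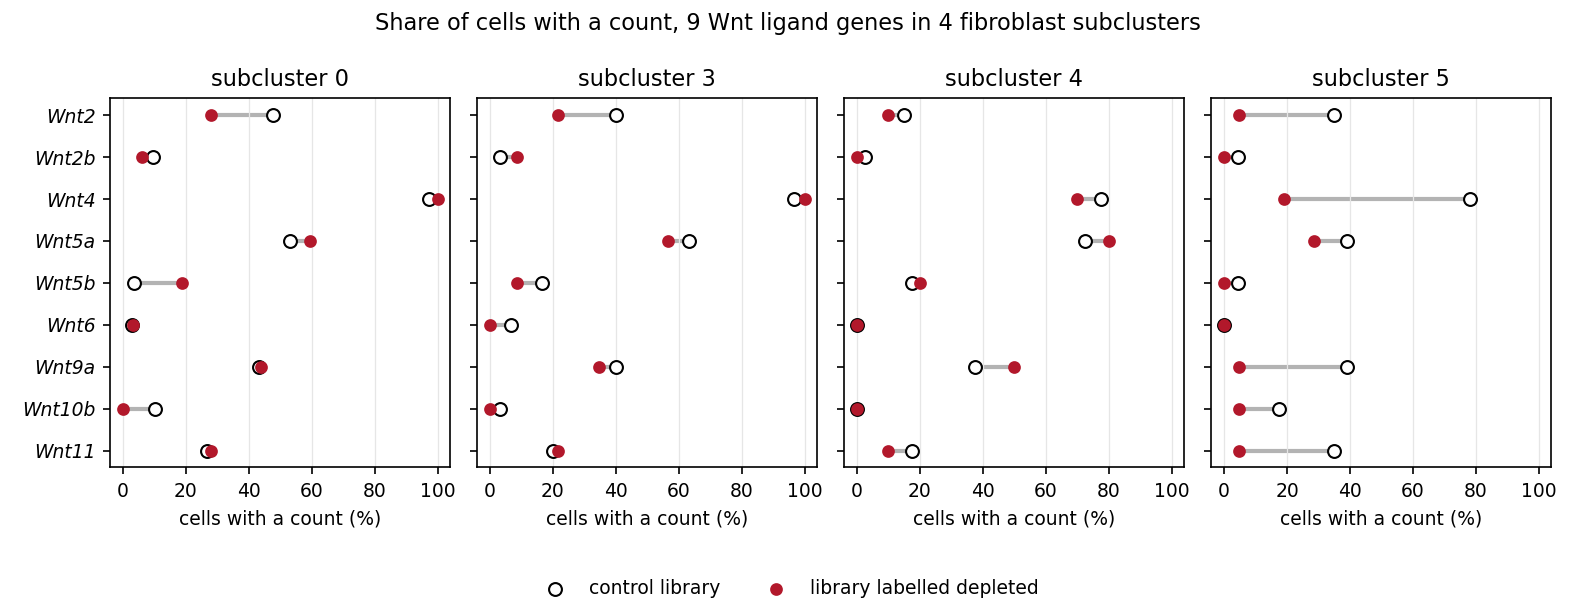
Percent of cells with a count (horizontal axis) for the 9 Wnt ligand genes in the tables, in fibroblast subclusters 0, 3, 4 and 5, with 1 open circle for the control library and 1 filled circle for the library labelled depleted. In subcluster 5 the filled circles lie left of the open ones for 8 of the 9 genes, Wnt4 by 59.3 points, while Wnt6 is at 0 in both libraries.

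Markers of mesothelial and mural cells were among several marker lists with a lower summed share in the library labelled depleted in subcluster 5. All 4 mesothelial markers had a log2 fold change below 0, their summed share was 117.3 points in the control library and 23.9 points in the library labelled depleted, and Wt1 alone was at -1.08. The 4 mural markers had a summed share of 56.5 points in control cells and 4.8 points in the other library. Summed shares also fell for macrophage (278.2 to 190.5), neutrophil (208.7 to 142.8), B cell (17.3 to 4.8) and cardiomyocyte markers (17.3 to 9.6). The single NK cell and Schwann cell markers each went from 4.3 to 0. Those of T cells (13 to 71.5), endothelial cells (12.9 to 19.1) and fibroblasts (517.5 to 562) rose. All 3 B cell markers lay between -0.62 and -0.33 on the log2 scale. The 6 fibroblast markers went both ways there, 3 with a log2 fold change above 0 and 3 below it. Tcf21 (43.5% to 81%, 1.13) and Postn (87% to 100%, 1.003) were past the limit, while Col1a1, Col1a2, Dcn and Pdgfra lay between -0.12 and 0.10. Whether the cells that hold these markers are also those that hold Sfrp4, Dkk2, Frzb or the Wnt ligands was not tested, since the tables have no values per cell.

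Among the other receptors and co-receptors, Fzd4 in subcluster 3 went from 46.7% to 17.4% of cells (-0.54). In subcluster 5 Ror1 went from 39.1% to 19% (-0.55) and Ptk7 from 30.4% to 57.1% (0.50), the second encoding a co-receptor of the noncanonical branch. The list had 1, 2, 0 and 4 of 12 genes lower and 0, 2, 0 and 1 higher in subclusters 0, 3, 4 and 5. Of the secreted and membrane modulators, which include the R-spondins that raise Wnt receptor levels, 0, 1, 2 and 4 of 12 were lower and 4, 0, 1 and 0 higher. Rspo1 went from 92.5% to 70% (-0.53) and Rspo2 from 27.5% to 0% (-0.77) in subcluster 4, and cluster 5 as a whole lists Rspo1 lower, at -0.34 with 58.4% of control cells and 42.8% of the others. Within subcluster 0 Rspo1 was at 0.28, on the other side of the limit. Its control share was 83.4%, 53.3%, 92.5% and 30.4% in subclusters 0, 3, 4 and 5. The part of the different subcluster mixes of the libraries in the value of cluster 5 was not tested.

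The secretion and cytoplasmic core had 0, 2, 1 and 1 of 13 genes lower and 4, 2, 4 and 3 higher in subclusters 0, 3, 4 and 5. Wls, which carries Wnt proteins to the cell surface, was at 0.93 in subcluster 5, where the ligands were lower, with 95.7% of control cells and 100% of the others. Amer1 went from 13% to 61.9% there (0.66), Gsk3a, a kinase gene, from 40% to 90% in subcluster 4 (0.87), and Csnk1a1, also a kinase gene, was at 0.51 in subcluster 0. Ctnnb1, which encodes beta-catenin, is listed higher in cluster 5 as a whole, at 0.32 with 80.9% of control cells and 90.9% of the others. Within subclusters 0, 3, 4 and 5 it was at 0.27, 0.01, 0.30 and -0.23.

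Of 13 nuclear factors, 0, 3, 0 and 1 were lower and 2, 3, 4 and 2 higher in the same order. Tcf7 was at 0.63, 1.08 and 0.57 in subclusters 3, 4 and 5, and went from 27.5% to 60% of cells in subcluster 4. Tcf7 is also abundant in T cells, whose markers were counted in more cells of the library labelled depleted in the same subclusters (22.5 against 70 summed points in subcluster 4), and their part in this value was not tested. Tle3 was at 0.63 in subcluster 4 and Tle5 at 0.72 in subcluster 5, both of them corepressor genes.

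Genes often used as readouts of canonical signalling passed the limit in both directions in each subcluster, with 2, 1, 1 and 2 of 8 lower and 1, 3, 1 and 3 higher. Axin2, a feedback inhibitor and the most specific of them, was at 0.08, -0.01 and 0.02 in subclusters 0, 3 and 5. It was at 0.74 in subcluster 4, where it went from 15% to 30% of cells, beside a smallest share above 0 of 10% in the library labelled depleted. Nkd1 went the other way in subcluster 4, from 60% to 40% of cells (-0.25). It was at -0.48, 0.26 and 0.30 in subclusters 0, 3 and 5. Nkd2, another feedback gene, went from 8.7% to 38.1% in subcluster 5 (0.53). Ccnd1, which encodes cyclin D1, was at 0.90 and 0.80 in subclusters 0 and 3, and Myc at 0.56 in the second of these. Cd44 was lower in subclusters 0 (-0.51) and 5 (-0.85). Ccn4, also known as Wisp1, was lower in subclusters 3 (-0.59) and 5 (-0.94), and in the latter its share went from 82.6% to 38.1%.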

How the data were processed

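The authors aligned reads of each library with Cell Ranger 6.1.1 to GRCm39 with added reporter sequences, combined both without depth normalization, and used Seurat to filter genes and cells, normalize counts by SCTransform with the mitochondrial fraction regressed out, and cluster. Cluster 5 alone was normalized and clustered again. The deposited tables (18 clusters, 4 fibroblast subclusters) give, per gene, the fraction of each library's cells whose corrected count is above 0, printed here as a percent, and the average log2 fold change, whose pseudocount is 1. This column is the authors' own comparison and is printed because the values of these genes are defined by it. Deposited p-values, computed over cells, were not used. Cluster tables hold only genes of at least 0.25 in size and 25% of cells; subcluster tables have no limits. Cell barcodes, cell numbers and depth per cell are not in the tables used, so doublets and shared barcodes could not be examined.

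Values were read with Python 3.11.15 and pandas 2.3.3, and the counting steps were tested on simulated data. Where a control share was 0, 2 to the power of the fold change, minus 1, was at least the share of the other library for all genes of each subcluster, as the formula requires. It gave the least mean count of the higher library: 1 plus the share in the library of lower average, times the fold, minus 1, and for positive cells divided by the share in the library of higher average, a measure added after values were seen. Positions are from GENCODE vM39. All 9 members were named, with pathway genes at a mean share of at least 10% and 0.5 in size (at most 3 per list and subcluster), and the 3 genes nearest in share to a member; other named genes were chosen after their values were seen. The members and lists were chosen with earlier results of these data known.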

Additional observations from a re-analysis of the deposited data

How the results depend on the processing

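No paired analysis was possible because a genotype had only 1 library, which also leaves none to omit. Centring on the median of detected genes and leaving out members with a mean share under 10% kept each of the 8 counts of members past the limit within 1.5 times. A size limit of 0.5 in place of 0.25 left 1 higher in subcluster 0, 0 lower in subcluster 3, 0 lower and 1 higher in subcluster 4, and 2 lower and 0 higher in subcluster 5, beside 1.48%, 1.51%, 3.17%, 4.75%, 4.79% and 3.25% of all genes in the same order. A limit of 1 left 0 higher in subcluster 0, 0 lower and 0 higher in subclusters 3 and 4, and 2 lower and 0 higher in subcluster 5, where 0.896% and 0.418% of all genes passed it, and in subclusters 0, 3 and 4 at most 0.478% did in a direction. Counting differences in share of at least 10 points gave 2 higher in subcluster 3, 2 lower in subcluster 4 and 2 lower in subcluster 5, beside 13.1%, 20.3% and 14.3% of all genes. By share, 5 values past the limit changed direction: Sfrp2 in subcluster 3 (23.2 points), Fzd1 in subcluster 4 (-2.5), and Sfrp1 (7.9), Dkk3 (7.9) and Fzd2 (-2.1) in subcluster 5. The cause was not tested. With Euclidean distance, at least 2 of the 3 nearest genes were shared for each of the 7 members compared.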

Other observations

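Outside the fibroblast cluster, no member is listed, but other genes of the pathway are. Over the 18 cluster tables there are 46 listings of 19 pathway genes in 16 clusters, 30 higher and 16 lower in the library labelled depleted. The higher ones are 65.2% of the 46, beside 47.7% of all 15431 listings, a share that ran from 29.2% to 68.2% between clusters, and the same cells stand behind many of these listings. Listed most often are Cd44 (6 clusters, 5 higher and 1 lower), Csnk1a1 (5 clusters, 4 higher and 1 lower) and Tle5 (5 clusters, 1 higher and 4 lower). The genes named here were chosen after their values were seen. Tcf7, a T cell transcription factor of the TCF/LEF family, is listed higher in 4 clusters, which are the T cell clusters 4 (88.7% of control cells and 92.6% of the others, 0.49), 8 (87.1% and 89.6%, 0.27) and 10 (100% and 99.5%, 0.28) and the natural killer cluster 14 (36.7% and 30.8%, 0.28). In clusters 10 and 14 its share was thus lower while its average was higher. Lef1, from the same family, is listed lower in cluster 14, at 11.5% of cells against 26.6% of control cells (-0.48), and higher in cluster 9 (0.33), where its share was lower (52.9% and 47.6%).

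Among macrophage and monocyte clusters, Tcf7l2 went from 62.5% of control cells to 37.8% in cluster 0 (-0.50). Fzd7, the one Frizzled gene any immune cluster lists, went from 29.2% to 13.9% in cluster 12 (-0.27). Ccnd1 is listed higher in 3 clusters, of which only cluster 11 (1.03) is of macrophages or monocytes. Cluster 15 (1.83) was unidentified or mixed in the study, and cluster 17 (0.90) was named dendritic cells. Across all cell types, the corepressor gene Tle5 is listed lower in 4 clusters and higher in 1.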
